A study of Mus musculus with 12 samples.

Results

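The genes described are the 9 immunoglobulin constant region genes named Ighm, Ighd, Ighg3, Ighg1, Ighg2b, Ighg2c, Ighe, Igha and Igkc, followed through every library of the series. They were taken by gene symbol from the deposited count tables, and all 9 were found among 55359 genes in the table of untreated cells, 56691 in that of stimulated cells and 55401 in that of additional wild-type cells. Poly(A) RNA of B cells from mouse spleen was sequenced after magnetic beads against CD43, a surface protein of most other leukocytes, had removed the cells that carry it. In the double knockout (DKO) mice Hnrnpa1 and Hnrnpa2b1 are both targeted by Cre-loxP recombination. The series is about these nuclear RNA-binding proteins in the germinal centre response of B cells. The groups were 3 DKO and 3 wild-type (WT) libraries of untreated cells, 2 DKO and 2 WT libraries of cells cultured for 48 h with anti-CD40 at 1 µg/mL and anti-IgM at 10 µg/mL, and 2 libraries of additional WT untreated cells. The labels name neither the strain, the age and sex of the mice nor what drives the Cre. Whether each replicate is an animal of its own is not stated, and p-values therefore measure no more than the spread between the libraries, which may be technical.

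An antibody heavy chain joins a variable region to a constant region, and the constant region decides the class of the antibody. Resting B cells carry IgM and IgD, whose constant regions are coded by Ighm and Ighd and are made from a single long primary transcript by alternative splicing and choice of the poly(A) site. The same choice within Ighm decides between the membrane and the secreted form of IgM. After activation, class switch recombination places the variable region in front of a downstream gene, which is first transcribed on its own as a germline transcript. Anti-IgM and anti-CD40 stand in for antigen and T cell help. Igkc codes for the constant region of the kappa light chain, which pairs with any of the heavy chains. The counts are of whole genes, so membrane and secreted forms, and germline and switched transcripts, were not told apart. In bulk RNA, fewer cells of a type and less RNA per cell cannot be told apart either.

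The 8 heavy chain genes lie in a row on the minus strand of mouse chromosome 12 (GRCm39, as the deposited tables of untreated and stimulated cells give it), over 167.9 kb. In the order of transcription these are Ighm (113382178 to 113386350), Ighd (113370224 to 113379944), Ighg3 (113319844 to 113324852), Ighg1 (113288860 to 113294143), Ighg2b (113266585 to 113271553), Ighg2c (113248945 to 113252552), Ighe (113232880 to 113236868) and Igha (113218450 to 113223856). Ighd starts 2.23 kb after the end of Ighm, whereas the next gene, Ighg3, follows after 45.4 kb. Igkc lies on the plus strand of chromosome 6 (70703419 to 70703950), and in the GENCODE M21 annotation it lies within an intron of the noncoding gene Gm30211. The first 60 coding bases of 6 constant regions are shown because they tell how far reads can be assigned to one gene. They were read from the GRCm38 genome on the minus strand, at chr12:113422671-113422730 for Ighm, chr12:113416265-113416324 for Ighd, chr12:113361173-113361232 for Ighg3, chr12:113330464-113330523 for Ighg1, chr12:113307874-113307933 for Ighg2b and chr12:113288873-113288932 for Ighg2c. Capitals in the 4 gamma genes mark positions that are not identical in all 4.
Ighm: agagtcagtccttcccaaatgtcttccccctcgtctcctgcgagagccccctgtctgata
Ighd: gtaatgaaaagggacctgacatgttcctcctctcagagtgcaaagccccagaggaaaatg
Ighg3: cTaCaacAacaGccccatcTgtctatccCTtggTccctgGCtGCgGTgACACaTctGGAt
Ighg1: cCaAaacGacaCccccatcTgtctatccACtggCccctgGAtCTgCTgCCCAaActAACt
Ighg2b: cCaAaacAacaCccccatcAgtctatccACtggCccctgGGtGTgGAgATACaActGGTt
Ighg2c: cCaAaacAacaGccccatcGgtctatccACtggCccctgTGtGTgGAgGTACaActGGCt

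Ighg2b and Ighg2c were the closest pair, with 55 of these 60 bases identical, against 42 to 47 for the other gamma pairs. Over the transcripts of the secreted forms their identity was 86.4%, against 75.1% to 77.8% for the other gamma pairs. A window of 50 bases that is shared with another member occurred at 5.49% of positions in Ighg2c, 4.15% in Ighg2b, 1.58% in Ighg3 and 0.393% in Ighg1, and at none in the other members. No window of 100 or 150 bases was shared. The sources used here do not give the read length, and counts of Ighg2b and Ighg2c in particular are uncertain to the extent that short reads could be split between them.

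Libraries held 15090953 to 21731893 counts. Both targeted transcripts were reduced but not absent in the DKO libraries, and what was left differed between these libraries. Hnrnpa1 stood at 76.7, 199 and 99.1 counts per 1000000 of the library total (CPM) in untreated DKO libraries, against 741, 720 and 718 CPM in untreated WT libraries, and at 252 and 238 CPM in stimulated DKO libraries, against 1738 and 1728 CPM in stimulated WT libraries. Hnrnpa2b1 stood at 335, 619 and 387 CPM in untreated DKO libraries, against 2020, 1782 and 1958 CPM in untreated WT libraries, and at 330 and 420 CPM in stimulated DKO libraries, against 1824 and 1842 CPM in stimulated WT libraries. Summed markers of B cells were at 4103 to 5038 CPM in untreated DKO and 5452 to 6084 CPM in untreated WT libraries, with none of the 8 markers at 0. In stimulated cells they were at 6267 to 7524 CPM in DKO and 9319 to 9945 CPM in WT libraries, again without overlap, and 1 of the 8, Cd22, was lower in DKO cells. By Xist counts, 1 untreated library of each genotype, DKO number 1 and WT number 2, read as female and the other 4 as male. The 2 additional WT libraries stood apart in Igkc and in their summed monocyte markers, mostly Adgre1, and B1 cell markers, mostly Bhlhe40 and Plscr1. They entered only the comparisons that name them.

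In resting WT cells the kappa gene and the genes of IgM and IgD made up nearly all of the RNA of the 9 members. The switched classes were far below them. Levels of different genes are compared per kilobase of the deposited exonic length. In untreated WT cells Igkc was first with 2040 ± 65.5 CPM per kb (mean ± SD, n = 3), Ighm followed with 1469 ± 182 and Ighd with 204 ± 18.1 CPM per kb. These 3 did not overlap between libraries. Ighg1 (8.85 ± 2.84 CPM per kb), Ighg3 (6.16 ± 3.67), Ighg2b (5.15 ± 1.58), Ighg2c (3.47 ± 1.91) and Igha (1.53 ± 0.119) came next, and each overlapped with its neighbour in that order. Ighe was last with 0.202 ± 0.194 CPM per kb. The lambda light chain genes are not among the 9 members. They stood at 101 ± 8.18 (Iglc1), 635 ± 81.1 (Iglc2) and 248 ± 25.0 CPM per kb (Iglc3) in the same cells. Untreated DKO cells kept Igkc, Ighm and Ighd first, with 2011 ± 165, 878 ± 58.4 and 240 ± 4.95 CPM per kb, and there Igha (2.34 ± 0.372 CPM per kb) overlapped with Ighg3 (2.09 ± 0.555), and Ighg3 with Ighg2c (1.89 ± 1.09). In the additional WT libraries Ighm led with 1029 ± 230 CPM per kb and Igkc followed with 585 ± 107 (n = 2).

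**Figure D1:**
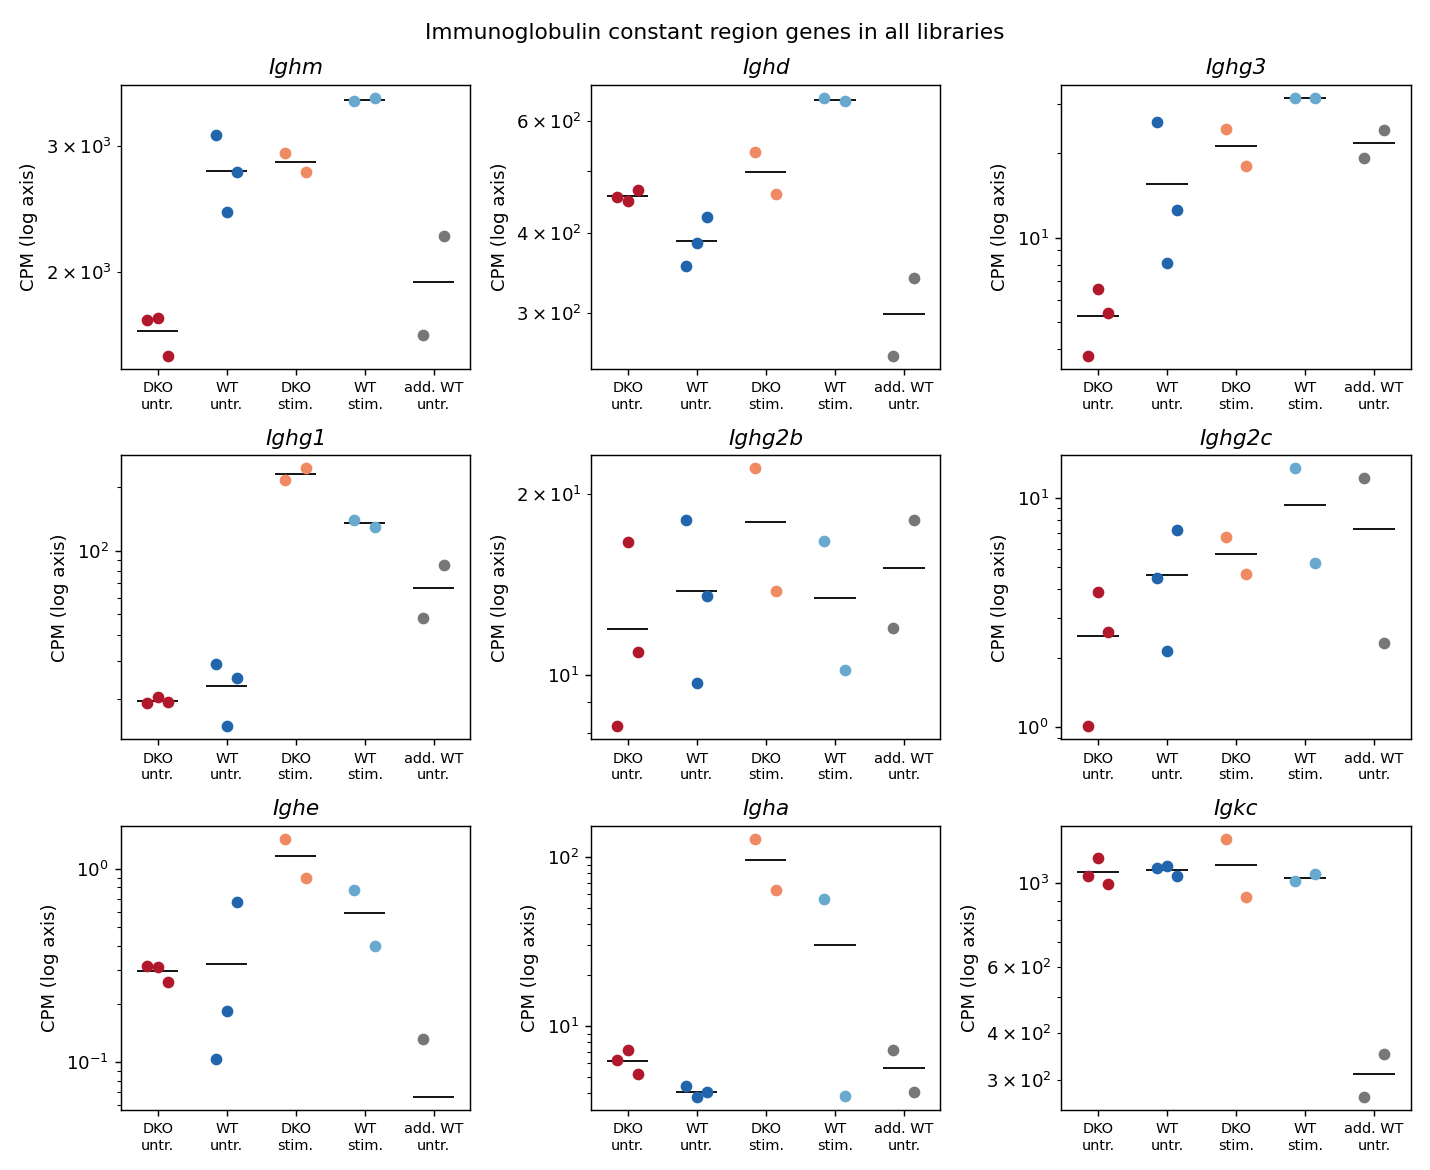
CPM, scaled to the library total, for each of the 9 genes on log axes, 1 point per library, in untreated DKO and WT, stimulated DKO and WT, and additional WT untreated cells, with bars at the group means. Untreated DKO libraries lie below WT for Ighm (1528 to 1725 against 2431 to 3116 CPM) and above WT for Ighd (449 to 467 against 355 to 424 CPM); the additional WT library with an Ighe count of 0 has no point.

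The first comparison asked how constant region RNA differed between DKO and WT cells before stimulation. In untreated DKO cells Ighm and Ighg3 were lower and Ighd and Igha higher than in untreated WT cells. Thus 4 of the 8 tested members passed the threshold (edgeR quasi-likelihood test, Benjamini-Hochberg adjusted p under 0.05 over all genes), 2 in each direction, where 19.5% of all 13561 tested genes passed, 8.81% of them higher and 10.6% lower. The members' median log2 fold change was -0.15, against -0.01 over all genes. Ighe, with 4 to 5 counts in DKO and 2 to 13 counts in WT libraries, did not pass the filter on low counts. The values of the genotypes did not overlap for 4 of the 9 members, 2 higher and 2 lower, where 39.4% of all tested genes did not overlap, 13.6% higher and 25.8% lower.

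Ighm, which codes for the IgM heavy chain, had 1713, 1725 and 1528 CPM in untreated DKO libraries, against 3116, 2431 and 2763 CPM in untreated WT libraries. Every DKO library was below every WT library, and the DKO libraries differed less among themselves. The log2 fold change of Ighm was -0.67 ± 0.10 (± SE; edgeR adjusted p = 0.00403), that is 0.629 of the WT level. Ighm passed on leaving out any 1 of the 6 libraries, with log2 fold changes of -0.76 to -0.58. With the additional WT libraries, at 1633 and 2247 CPM, counted as WT it did not pass (-0.49, edgeR adjusted p = 0.183).

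Ighd, which lies on the same primary transcript and codes for the IgD heavy chain, moved the other way. It had 455, 449 and 467 CPM in untreated DKO libraries, against 355, 386 and 424 CPM in untreated WT libraries. All DKO libraries were above all WT libraries, though the highest WT library came close to the lowest DKO library. Ighd rose by 0.31 ± 0.08 on the log2 scale (edgeR adjusted p = 0.0231). The call was lost without WT number 1 (edgeR adjusted p = 0.0908), WT number 3 (0.0523), DKO number 2 (0.0529) or DKO number 3 (0.0855), and when counts were scaled by plain library totals (0.0627). In a single fit over 10 libraries its edgeR adjusted p was 0.0797, and it also did not pass once the additional WT libraries joined the WT group (0.44, edgeR adjusted p = 0.154).

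The balance within each library showed this difference without any scaling between libraries. Untreated DKO libraries held 26.6, 26.0 and 30.6 Ighd counts per 100 Ighm counts, against 11.4, 15.9 and 15.3 in untreated WT libraries. The lowest DKO library was well above the highest WT library. The mean log2 ratio was higher in DKO cells by 0.98, a factor of 1.97 (two-sided exact permutation test, p = 0.1, the smallest that 3 against 3 libraries can give). In the 2 libraries that read as female the difference was 0.74, and in the 4 that read as male it was 1.09. The additional WT libraries held 15.7 and 15.1 Ighd counts per 100 Ighm counts, within the range of the other WT libraries, although their levels of both genes were lower.

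**Figure D2:**
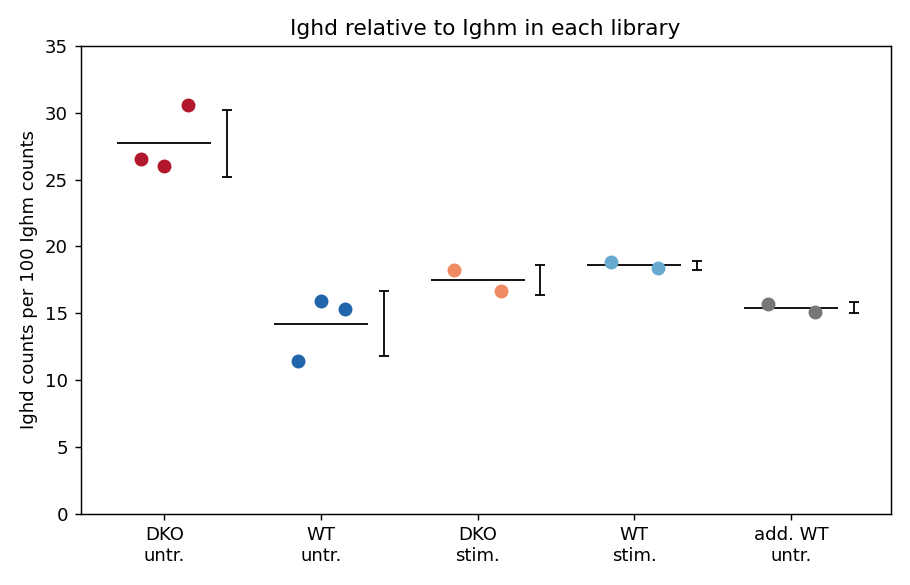
Ighd counts per 100 Ighm counts in each library, with a bar at the mean and the SD beside it, for untreated DKO and WT, stimulated DKO and WT, and additional WT untreated cells. The 3 untreated DKO libraries lie at 26.0 to 30.6, and all other libraries lie between 11.4 and 18.8.

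Among the gamma genes, only Ighg3 passed in untreated cells. Ighg3 codes for IgG3, a class known for responses of marginal zone and B1 cells to carbohydrate antigens. It had 3.79, 6.56 and 5.40 CPM in untreated DKO libraries, against 25.8, 8.09 and 12.5 CPM in untreated WT libraries. No DKO library reached the lowest WT library, while WT libraries differed about as much among themselves. Ighg3 fell by 1.49 on the log2 scale (SE 0.40; edgeR adjusted p = 0.0323). Without WT number 1, which held the most Ighg3, the change was -0.90 (edgeR adjusted p = 0.0610). The call was also lost without WT number 3 (0.0641) or DKO number 1 (0.0827), number 2 (0.0514) or number 3 (0.101), and with the additional WT libraries in the WT group (0.0633). Ighg1 had 19.1, 20.3 and 19.2 CPM in DKO libraries, against 29.1, 14.8 and 24.9 CPM in WT libraries, and Ighg2b had 8.21, 16.7 and 10.9 against 18.1, 9.68 and 13.6 CPM. Ighg2c had 1.01, 3.90 and 2.60 CPM in DKO libraries, against 4.48, 2.15 and 7.19 CPM in WT libraries. For these 3 genes the genotypes overlapped. Their log2 fold changes were -0.16 ± 0.21 for Ighg1 (edgeR adjusted p = 0.626), -0.14 ± 0.29 for Ighg2b (0.773) and -0.81 ± 0.51 for Ighg2c (0.291). Ighg1 passed without WT number 2 (-0.40, edgeR adjusted p = 0.0485), and Ighg2c passed with a term for sex, added after the data were seen (-0.82, edgeR adjusted p = 0.0348).

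Igha codes for the heavy chain of IgA, the antibody of mucosal surfaces. It had 6.32, 7.18 and 5.20 CPM in untreated DKO libraries, against 4.43, 3.80 and 4.04 CPM in untreated WT libraries, which rest on 80 to 116 counts in DKO and 62 to 85 counts in WT libraries. All DKO libraries were above all WT libraries. Igha rose by 0.68 ± 0.19 on the log2 scale (edgeR adjusted p = 0.0371). This call was lost on leaving out any 1 of the 6 libraries, at edgeR adjusted p-values of 0.0515 without DKO number 3, 0.0628 without WT number 1, 0.0706 without WT number 2, 0.0747 without DKO number 1, 0.111 without DKO number 2 and 0.121 without WT number 3. It was also lost with plain library totals (0.0523), in a single fit over 10 libraries (0.569), with the additional WT libraries in the WT group (0.307) and within the 4 libraries that read as male (0.0762). Igkc had 1044, 1168 and 999 CPM in DKO libraries, against 1097, 1112 and 1046 CPM in WT libraries. The kappa gene thus overlapped between genotypes, with a log2 fold change of 0.05 ± 0.08 (edgeR adjusted p = 0.682). Counts of Ighm per count of Igkc were 1.64, 1.48 and 1.53 in DKO libraries, against 2.84, 2.18 and 2.64 in WT libraries, with no overlap.

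The downstream genes together, from Ighg3 to Igha, took 1.75%, 2.46% and 2.14% of heavy chain constant region counts in untreated DKO libraries, against 2.31%, 1.35% and 1.94% in untreated WT libraries (Wilson 95% intervals within 0.246 percentage points for every library of the series, covering counting error only). The genotypes overlapped, and the difference of 0.252 percentage points did not hold up against the spread (exact permutation test, p = 0.6). Igha took 16.3%, 13.1% and 11.9% of those downstream counts in DKO libraries, against 5.40%, 9.83% and 6.41% in WT libraries, without overlap. The kappa share of light chain counts (Igkc over the sum of Igkc, Iglc1, Iglc2 and Iglc3) was 67.8%, 72.4% and 71.8% in DKO libraries, against 68.4%, 64.5% and 66.8% in WT libraries (Wilson 95% intervals within 0.993 percentage points for every library). These overlapped too (difference 4.16 percentage points, exact permutation test, p = 0.2).

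Markers of other B cell subsets were followed in untreated cells too, where 8.81% of all tested genes were higher and 10.6% lower. The subset markers that passed were all lower in DKO cells, as were Ighm and Ighg3, whereas Ighd and Igha were higher. Of the 8 marginal zone markers 6 were lower in DKO cells and none higher, and their summed level was 205 to 257 CPM in DKO and 353 to 446 CPM in WT libraries. Of the 8 B1 cell markers 6 were lower and none higher, with summed levels of 563 to 586 CPM in DKO and 729 to 780 CPM in WT libraries. Bhlhe40 and Plscr1 made up most of the B1 sum, with means of 271 and 225 CPM in DKO and 374 and 209 CPM in WT cells. No marker of these 2 lists was at 0 in any library. The B1 list includes Spn, the gene of CD43, and cells with CD43 on their surface, as B1 and plasma cells have it, are those that the beads remove. Plasma cell markers had 2 of 9 tested genes lower and none higher, with summed levels of 854 to 937 CPM in DKO and 883 to 1015 CPM in WT libraries, and Tnfrsf17 was at 0 in all 3 DKO and in 2 of 3 WT libraries. Their part in the differences of Ighm, Ighg3 and Igha was not tested. Jchain, which codes for the joining chain of polymeric IgM and IgA, had 5.18, 12.9 and 9.23 CPM in DKO libraries, against 28.2, 10.2 and 16.3 CPM in WT libraries. Jchain overlapped between genotypes and did not pass (-0.93 ± 0.40, edgeR adjusted p = 0.132). None of 2 tested T cell and 2 tested red cell markers passed, and 1 of 5 tested monocyte markers was lower.

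Genes known to act on the immunoglobulin locus or its RNA were followed beside the members. Of 18 genes of immunoglobulin mRNA processing 3 rose and 3 fell in untreated DKO cells, where 8.81% of all tested genes were higher and 10.6% lower. Hnrnpll, a splicing regulator that acts in plasma cell differentiation, rose by 1.19 ± 0.24 (edgeR adjusted p = 0.0111), and the cleavage factor gene Cstf3 by 0.40 ± 0.09 (0.0163). Ell2, an elongation factor that favours secreted heavy chain mRNA, changed by -0.53 ± 0.12 (edgeR adjusted p = 0.0149) and the splicing regulator Ptbp1 by -0.34 ± 0.07 (0.0147). Zfp318, a nuclear protein that mice need for Ighd expression, did not pass (-0.01 ± 0.08, edgeR adjusted p = 0.963). Of 31 genes of class switch recombination 1 rose and 5 fell, a share close to the 19.5% of all genes that passed. Rnf8, a ubiquitin ligase at DNA breaks, rose by 0.64 ± 0.12, while the end-joining factor gene Nhej1 changed by -1.001 ± 0.192, the abasic site protein gene Hmces by -0.92 ± 0.25 and Supt5, a transcription elongation factor, by -0.57 ± 0.07. Of 22 transcription factors of the locus 2 fell, the coactivator gene Pou2af1 (-0.42 ± 0.07) and Irf8 (-0.64 ± 0.15), and none rose.

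Receptors of antibodies and partners of the chains were the last groups. Of 10 tested Fc receptor and transport genes 1 rose and 4 fell, where 19.5% of all tested genes passed. The IgE receptor gene Fcer2a rose by 0.90 ± 0.17, while Fcgr2b, the inhibitory receptor for IgG, changed by -0.91 ± 0.11, Pigr, which carries polymeric IgA and IgM across epithelia, by -1.01 ± 0.18, and the receptor-like gene Fcrl5 by -0.69 ± 0.16. Of 8 tested partners of the B cell receptor chains only Vpreb3 passed, with -1.75 ± 0.40 (edgeR adjusted p = 0.0171). The median log2 fold changes of the 5 lists were 0.00 for mRNA processing, 0.08 for class switch recombination, -0.05 for transcription factors, -0.41 for Fc receptors and -0.28 for receptor partners, against -0.01 over all genes.

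The second comparison set DKO against WT cells after stimulation. Ighg1 was higher in stimulated DKO cells, and no other member passed. This was 1 of 9 tested members, where 11.3% of 14430 genes passed, 5.09% of them higher and 6.17% lower. The members' median was 0.21, against -0.03 over all genes. With 2 libraries in each group the values did not overlap for 6 of the 9 members, 3 higher and 3 lower, where 62.7% of all tested genes did not overlap, 24.4% higher and 38.3% lower.

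Ighg1 codes for IgG1, a class of T cell-dependent responses, and its germline transcript is induced by CD40 signals with interleukin 4. It had 215 and 245 CPM in stimulated DKO libraries, against 139 and 130 CPM in stimulated WT libraries. Both DKO libraries were above both WT libraries by more than either pair differed. Ighg1 rose by 0.87 ± 0.18 on the log2 scale, a factor of 1.83 (edgeR adjusted p = 0.0187). With only 1 WT library left, assumed to vary like the DKO group, it did not pass, with 0.95 without WT number 1 (edgeR adjusted p = 0.141) and 0.80 without the unnumbered WT library (0.296). That name is used for the stimulated WT column whose number matches no label.

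Igha varied most between libraries of the same group. It had 128 and 63.7 CPM in stimulated DKO libraries, against 56.3 and 3.87 CPM in stimulated WT libraries. The unnumbered WT library thus held as little Igha as untreated WT cells, while WT number 1 was close to the lower DKO library. The log2 fold change was 1.75 ± 0.84 (edgeR adjusted p = 0.197). It ranged from 0.85 without the unnumbered WT library to 4.76 without WT number 1, and without DKO number 2 it was 2.23. Each of these fits leaves 1 library in a group, which is assumed to vary like the other group. Without a filter on low counts the change was 1.78 (edgeR adjusted p = 1.94e-15). That p-value is far too small for WT libraries at 56.3 and 3.87 CPM, so it does not measure their spread.

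Ighm had 2935 and 2762 CPM in stimulated DKO libraries, against 3466 and 3506 CPM in stimulated WT libraries, with a log2 fold change of -0.19 ± 0.19 (edgeR adjusted p = 0.535). Ighd had 535 and 460 CPM in DKO, against 652 and 643 CPM in WT libraries (-0.28 ± 0.19, edgeR adjusted p = 0.344). Both DKO libraries were below both WT libraries for the 2 genes, but the DKO libraries differed from each other and neither gene passed. Without DKO number 1, Ighd passed with -0.42 (edgeR adjusted p = 0.00852) and so did Ighg3 with -0.73 (0.00353). These values assume that the lone DKO library varies like the 2 WT libraries, which lay very close together (648 ± 5.98 CPM for Ighd and 31.4 ± 0.0335 CPM for Ighg3). Ighg3 had 24.4 and 18.0 CPM in DKO, against 31.5 and 31.4 CPM in WT libraries (-0.47 ± 0.20, edgeR adjusted p = 0.158). Ighd counts per 100 Ighm counts were 18.2 and 16.7 in DKO libraries, against 18.8 and 18.3 in WT libraries. The mean log2 ratio differed by -0.09 (exact permutation test, p = 0.333, the smallest that 2 against 2 libraries can give).

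The remaining members did not pass either. Ighg2b had 22.1 and 13.8 CPM in stimulated DKO libraries, against 16.7 and 10.2 CPM in stimulated WT libraries (0.52 ± 0.30, edgeR adjusted p = 0.284), and Ighg2c had 6.76 and 4.65 against 13.4 and 5.18 CPM (-0.61 ± 0.42, 0.363). The genotypes overlapped for both. Ighe, the gene of the IgE heavy chain, had 31 and 15 counts in DKO, against 15 and 7 counts in WT libraries (1.07 ± 0.56, edgeR adjusted p = 0.232). Igkc had 1313 and 921 CPM in DKO, against 1014 and 1056 CPM in WT libraries (0.21 ± 0.22, edgeR adjusted p = 0.557). DKO number 1 was the highest library for Igkc and DKO number 2 the lowest. Without DKO number 2, Ighg2b (0.87, edgeR adjusted p = 0.00327) and Igkc (0.51, 0.000492) passed, on the same assumption about the lone DKO library.

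**Figure D3:**
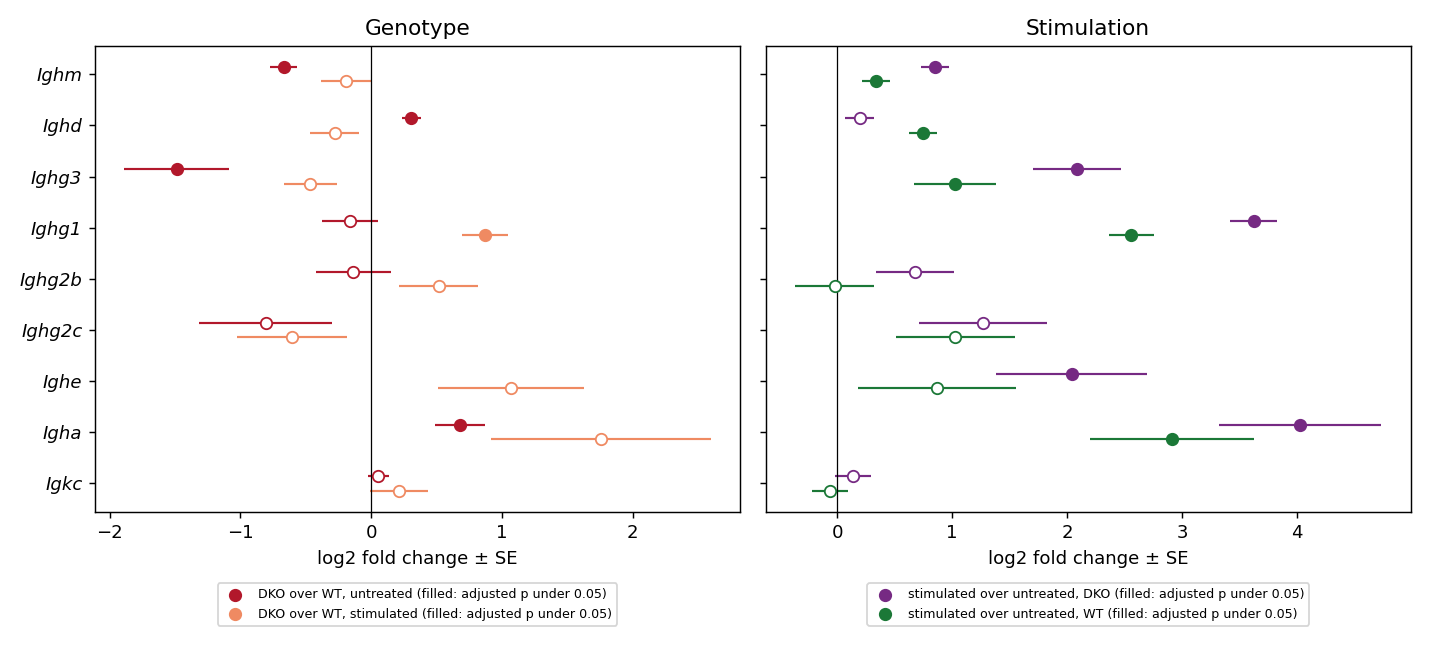
Log2 fold change ± SE from edgeR of each member, DKO over WT in untreated and stimulated cells (left) and stimulated over untreated in DKO and WT cells (right), with filled points at an adjusted p under 0.05. In untreated cells Ighm (-0.67) and Ighg3 (-1.49) lie left of 0 and Ighd (0.31) and Igha (0.68) right of it; in stimulated cells only Ighg1 (0.87) is filled, and Ighe was not tested in untreated cells.

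The downstream genes together took 10.3% and 9.70% of heavy chain counts in stimulated DKO libraries, against 5.89% and 4.18% in stimulated WT libraries. Both DKO libraries were above both WT libraries, and the difference of 4.96 percentage points has an exact permutation p of 0.333, the smallest possible here. Per kilobase it was 3.68 percentage points. Ighg1 took 54.2% and 70.8% of these downstream counts in DKO libraries, against 54.0% and 71.8% in WT libraries, so its part in them overlapped. Igha took 32.1% and 18.4% in DKO, against 21.8% and 2.14% in WT libraries. The kappa share was 79.6% and 78.9% in DKO, against 74.7% and 73.8% in WT libraries (difference 4.97 percentage points, exact permutation test, p = 0.333).

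**Figure D4:**
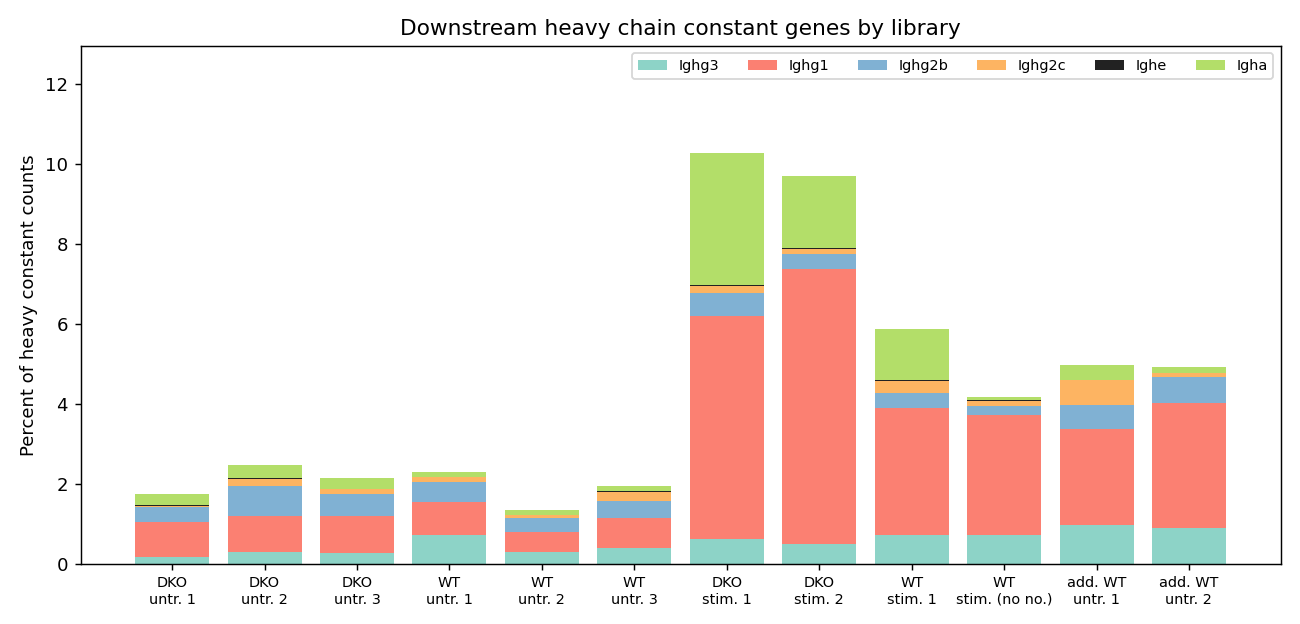
Share of heavy chain constant region counts taken by each downstream gene, in percent, stacked for each library of untreated DKO and WT, stimulated DKO and WT, and additional WT cells. The stacks reach 10.3% and 9.70% in stimulated DKO libraries, against 5.89% and 4.18% in stimulated WT libraries, and Ighg1 is the largest part in every stimulated library.

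The same lists were followed in stimulated cells. Of 31 genes of class switch recombination 3 rose and 1 fell in stimulated DKO cells, a share close to the 11.3% of all genes that passed. Batf, a transcription factor that activated B cells need for class switching, rose by 0.99 ± 0.18 (edgeR adjusted p = 0.0135), Rnf8 by 0.89 ± 0.18 and the shieldin gene Shld3 by 0.90 ± 0.23, while its partner Shld2 changed by -0.81 ± 0.22. In mRNA processing Hnrnpll rose by 2.55 ± 0.26 (edgeR adjusted p = 0.00157) and Ell2 changed by -0.94 ± 0.18 (0.0168), and the other 16 of 18 did not pass. Of 22 transcription factors 4 fell and none rose, Irf8 (-0.95 ± 0.18), Bach2 (-0.92 ± 0.24), Mef2c (-0.91 ± 0.19) and Ets1 (-0.71 ± 0.18). Of 12 tested Fc receptor genes 3 fell, Pigr (-1.43 ± 0.23), Fcgr2b (-0.88 ± 0.16) and Fcrla (-0.83 ± 0.18). Fcgr3 rose by 3.57 ± 0.83, on means of 0.673 CPM in DKO and 0.0544 CPM in WT cells. It lay near the floor in WT cells and passed the filter on low counts through the DKO libraries alone. None of the 8 tested receptor partners passed.

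The summed levels of plasma cell markers overlapped in the stimulated groups, with 695 to 737 CPM in DKO and 668 to 731 CPM in WT libraries. Irf4 and Txndc5, which other B cells also express, made up most of that sum, with means of 455 and 118 CPM in DKO and 397 and 153 CPM in WT cells. Of 9 tested markers 1, Xbp1, was lower in DKO cells. Derl3, of protein quality control in the endoplasmic reticulum, stood at 0.90 ± 0.35 (edgeR adjusted p = 0.121) and Mzb1 at 0.41 ± 0.17 (0.149), and neither passed. Tnfrsf17 was at 0 in both DKO and in 1 of 2 WT libraries. Jchain had 43.0 and 33.5 CPM in DKO, against 31.4 and 16.7 CPM in WT libraries, and did not pass (0.76 ± 0.29, edgeR adjusted p = 0.117). Within each genotype the library with more Igha also held more Jchain and Xbp1. It held less Prdm1, with 3.36 against 6.49 CPM in DKO and 3.58 against 5.06 CPM in WT cells. Sdc1 was higher there in DKO (11.3 against 7.68 CPM) and lower in WT cells (8.93 against 10.7 CPM). An order of 2 libraries per genotype carries little weight. Among all tested genes 5.09% were higher and 6.17% lower in stimulated DKO cells. Marginal zone markers summed to 155 to 176 CPM in DKO and 294 to 336 CPM in WT libraries, with 3 of 8 lower. B1 markers summed to 420 to 448 CPM in DKO and 479 to 510 CPM in WT libraries, with 1 of 8 higher and 3 lower. Bhlhe40 and Plscr1 made up most of the B1 sum, with means of 212 and 115 CPM in DKO and 204 and 75.4 CPM in WT cells. The part of these marker groups in the values of Ighg1 and Igha was not tested.

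The third comparison asked what stimulation did within each genotype. It sets cells from the table of stimulated cells against cells from the table of untreated cells, so stimulation, culture and the table cannot be told apart. In DKO cells Ighm, Ighg3, Ighg1, Ighe and Igha rose, that is 5 of 9 members, where 33.0% of 15006 genes passed, 16.2% of them higher and 16.8% lower. In WT cells Ighm, Ighd, Ighg3, Ighg1 and Igha rose, also 5 of 9, where 40.6% passed, 17.8% of them higher and 22.8% lower. No member fell in either genotype. The members' median log2 fold change was 1.27 in DKO and 0.87 in WT cells, against -0.01 and -0.02 over all genes.

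Ighg1 rose the most firmly. It averaged 230 ± 20.9 CPM in stimulated (n = 2) and 19.5 ± 0.649 CPM in untreated DKO cells (n = 3), a log2 change of 3.62 ± 0.20 (edgeR adjusted p = 6.91e-08), or a factor of 12.3. In WT cells it averaged 134 ± 6.52 CPM in stimulated and 22.9 ± 7.36 CPM in untreated cells, a log2 change of 2.56 ± 0.20 (edgeR adjusted p = 1.37e-06), or a factor of 5.89. Stimulated and untreated libraries were far apart in both genotypes.

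Ighm rose by 0.85 ± 0.12 in DKO cells (edgeR adjusted p = 0.000234), with 2849 ± 122 CPM in stimulated and 1655 ± 110 CPM in untreated cells. In WT cells it rose by 0.34 ± 0.12 (edgeR adjusted p = 0.0439), with 3486 ± 28.0 CPM in stimulated and 2770 ± 343 CPM in untreated cells. The WT call was lost without untreated WT number 2 or 3, any of the 3 untreated DKO libraries or either stimulated WT library, at edgeR adjusted p-values of 0.0631 to 0.172, without a filter on low counts (0.0519) and with the additional WT libraries in the WT group (0.0864). Ighd in DKO cells did not pass (0.19 ± 0.12, edgeR adjusted p = 0.254), at 498 ± 53.3 CPM in stimulated and 457 ± 9.41 CPM in untreated cells. It passed there without DKO stimulated number 2 (0.36, edgeR adjusted p = 0.0320). In WT cells Ighd rose by 0.75 ± 0.12 (edgeR adjusted p = 0.000491), at 648 ± 5.98 CPM in stimulated and 388 ± 34.3 CPM in untreated cells.

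Ighg3 rose by 2.09 ± 0.38 in DKO cells (edgeR adjusted p = 0.00131), with 21.2 ± 4.53 CPM in stimulated and 5.25 ± 1.39 CPM in untreated cells. In WT cells it rose by 1.03 ± 0.36 (edgeR adjusted p = 0.0367), with 31.4 ± 0.0335 CPM in stimulated and 15.5 ± 9.21 CPM in untreated cells. The highest untreated WT library, number 1 with 25.8 CPM, came near the stimulated ones, and the WT call was lost with DESeq2 (adjusted p = 0.0816) and without untreated WT number 2 (0.74, edgeR adjusted p = 0.0784), untreated WT number 3 (0.91, 0.109), stimulated WT number 1 (0.99, 0.136) or the unnumbered WT library (1.05, 0.126), and with the additional WT libraries in the WT group (0.82, 0.163). Igha rose by 4.03 ± 0.70 in DKO cells (edgeR adjusted p = 0.000951), with 95.7 ± 45.3 CPM in stimulated and 6.23 ± 0.993 CPM in untreated cells. In WT cells it rose by 2.91 ± 0.72 (edgeR adjusted p = 0.00625), which rests on 1 library: without stimulated WT number 1 the change was -0.11 (edgeR adjusted p = 0.874).

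Ighe in DKO cells rose by 2.04 ± 0.66 (edgeR adjusted p = 0.0305) on 31 and 15 counts in stimulated and 5, 5 and 4 counts in untreated libraries. It did not pass without untreated DKO number 1 (edgeR adjusted p = 0.0685), number 2 (0.0685) or number 3 (0.0804), or without stimulated DKO number 1 (0.183). In WT cells Ighe stood at 0.87 ± 0.69 (edgeR adjusted p = 0.336), and it passed there without untreated WT number 3 (2.03, edgeR adjusted p = 0.0466). Ighg2c stood at 1.27 ± 0.55 in DKO (edgeR adjusted p = 0.0985) and 1.03 ± 0.52 in WT cells (0.133), and Ighg2b at 0.67 ± 0.34 in DKO (0.149) and -0.02 ± 0.34 in WT cells (0.966). Without a filter on low counts Ighg2c passed in DKO (1.28, edgeR adjusted p = 6.47e-05) and in WT cells (1.01, 0.000881), and Ighg2b in DKO cells (0.68, 0.00396). These changes were nearly those of the main fit, and what made the p-values smaller was not tested. Igkc stood at 0.14 ± 0.16 in DKO (edgeR adjusted p = 0.534) and -0.06 ± 0.16 in WT cells (0.782). It passed in DKO cells without stimulated DKO number 2 (0.42, edgeR adjusted p = 0.0128).

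In stimulated DKO cells the members' levels per kilobase ran from Igkc (2099 ± 521 CPM per kb, n = 2) and Ighm (1510 ± 64.8) over Ighd (262 ± 28.1), Ighg1 (88.8 ± 8.05) and Igha (35.9 ± 17.0) to Ighg3 (8.43 ± 1.80), Ighg2b (6.70 ± 2.18), Ighg2c (4.30 ± 1.13) and Ighe (0.732 ± 0.238). Of the neighbours in this order only Ighg3 and Ighg2b overlapped. In stimulated WT cells Igkc (1946 ± 56.4 CPM per kb), Ighm (1848 ± 14.8), Ighd (341 ± 3.15) and Ighg1 (51.9 ± 2.52) came first, then Ighg3 (12.5 ± 0.0133), Igha (11.3 ± 13.9), Ighg2c (7.00 ± 4.38) and Ighg2b (5.02 ± 1.72), which overlapped with their neighbours, and last Ighe (0.371 ± 0.170).

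Other genes of the pathway moved in both directions on stimulation. Of 31 class switch genes 6 rose and 6 fell in DKO cells, where 33.0% of all genes passed, and 3 rose and 8 fell in WT cells, where 40.6% passed, so neither share stood far from that of all genes. The repair gene Ung, which removes uracil from DNA, changed by -0.56 ± 0.14 in DKO and -0.64 ± 0.14 in WT cells. Among the genes that rose in DKO cells were Supt5 (0.53 ± 0.11) and Shld3 (0.73 ± 0.18). Neither passed in WT cells, at 0.14 ± 0.11 for Supt5 and 0.20 ± 0.19 for Shld3. In mRNA processing 1 of 18 genes rose in DKO cells, and 4 rose and 3 fell in WT cells. Zfp318 rose by 0.54 ± 0.15 in DKO cells (edgeR adjusted p = 0.0170) and by 1.24 ± 0.15 in WT cells (5.29e-05). Hnrnpll changed by -0.84 ± 0.27 in WT cells (edgeR adjusted p = 0.0254), while in DKO cells it stood at 0.56 ± 0.23 and did not pass (0.0799). Of 12 tested Fc receptor genes 6 rose and 1 fell in DKO cells and 6 rose in WT cells, among them Fcrla by 1.56 ± 0.19 in DKO and 1.68 ± 0.19 in WT cells. Of 22 transcription factors 6 rose and 2 fell in DKO cells and 6 rose and 4 fell in WT cells, with Mef2c higher by 0.66 ± 0.13 in DKO and 1.23 ± 0.13 in WT cells. Of 8 receptor partners 2 rose and 3 fell in DKO cells and 4 fell in WT cells. Mzb1, an endoplasmic reticulum protein that assists IgM assembly, changed by -0.86 ± 0.14 in DKO and -1.45 ± 0.14 in WT cells, and the lambda gene Iglc2 by -0.71 ± 0.18 in DKO and -0.83 ± 0.18 in WT cells. Jchain rose in DKO cells by 2.14 ± 0.41 (edgeR adjusted p = 0.00185) and stood at 0.41 ± 0.41 in WT cells (0.445).

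The last comparison tested whether stimulation acted differently in DKO and WT cells. With edgeR none of the 9 members passed, where 0.140% of 15006 genes did, 0.133% of them higher and 0.00666% lower. The share of all genes with an unadjusted p under 0.05 was not worked out, and 3 members had such a p. These were Ighg1, with a difference of log2 changes of 1.07 ± 0.28 (edgeR adjusted p = 0.189), Ighd with -0.55 ± 0.18 (edgeR adjusted p = 0.282) and Ighm with 0.51 ± 0.18 (edgeR adjusted p = 0.300). With DESeq2 1 member passed, Ighg1 (1.06, adjusted p = 0.0324). Without a filter on low counts 3 members passed, Ighg1 (1.09, edgeR adjusted p = 2.61e-05), Igha (1.14, 0.00103) and Ighg3 (1.09, 0.00745). Here too the changes were nearly those of the main fit, and what made the p-values smaller was not tested. Leaving out 1 library, Ighg1 passed without untreated WT number 2 (1.27, edgeR adjusted p = 0.0134), Ighm without stimulated DKO number 2 (0.62, 0.0408) and Igha without stimulated WT number 1 (4.13, 0.0209). The other members stood at 1.06 ± 0.53 (Ighg3), 0.70 ± 0.49 (Ighg2b), 0.24 ± 0.77 (Ighg2c), 1.17 ± 0.97 (Ighe), 1.12 ± 1.01 (Igha) and 0.20 ± 0.22 (Igkc), with edgeR adjusted p-values of 0.445 to 0.922. The members' median was 0.70, against 0.05 over all genes.

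Within libraries, the balance of Ighd and Ighm moved in opposite directions. The mean log2 ratio of Ighd to Ighm was lower by 0.67 in stimulated than in untreated DKO cells, and higher by 0.40 in stimulated than in untreated WT cells. In DKO cells both stimulated libraries (18.2 and 16.7 Ighd counts per 100 Ighm counts) were below all untreated ones (26.0 to 30.6), and in WT cells both stimulated libraries (18.8 and 18.3) were above all untreated ones (11.4 to 15.9). The stimulated libraries of both genotypes thus lay between the untreated DKO and the untreated WT libraries. For the downstream share the rise was 7.87 percentage points in DKO and 3.17 in WT cells, a difference of 4.71 points (exact permutation of the untreated and stimulated labels within each genotype, 100 arrangements, p = 0.29, and 0.435 adjusted over 3 measures). The kappa share rose by 8.51 percentage points in DKO and 7.70 in WT cells, a difference of 0.811 points (the same exact permutation, p = 0.85).

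The additional WT libraries give a further set of resting cells for the members. Igkc had 271 and 352 CPM there, below the 999 to 1168 CPM of all 6 other untreated libraries, and the kappa share of light chain counts was 42.9% and 47.5%. Iglc2 was at 280 and 292 CPM, within the range of the other untreated libraries (260 to 446 CPM). Iglc3, at 53.6 and 54.9 CPM, was below the 96.8 to 125 CPM of the other untreated libraries, and Iglc1, at 26.8 and 41.6 CPM, was not apart from their 28.9 to 48.3 CPM. Ighm (1633 and 2247 CPM) was below the 2431 to 3116 CPM of the other untreated WT libraries. Its lower value lay within the 1528 to 1725 CPM of untreated DKO libraries. Ighd (257 and 340 CPM) was below all other untreated libraries. Ighg1 had 48.0 and 85.2 CPM, above the 14.8 to 29.1 CPM of the other untreated libraries, and downstream genes took 4.96% and 4.92% of heavy chain counts. Ighg3 had 19.3 and 24.1 CPM, Ighg2b 12.0 and 18.1 CPM, Ighg2c 12.2 and 2.33 CPM, and Igha 7.16 and 4.06 CPM. Ighe had 2 counts and 0 counts, which allows up to 0.184 CPM in the library with none. The table of these libraries has gene coordinates of an older build than the other tables, and summed monocyte markers were 195 and 243 CPM there, against 37.4 to 72.6 CPM in the other untreated libraries. Adgre1 made up most of that sum, with a mean of 196 CPM there, against 18.1 CPM in untreated DKO and 41.4 CPM in untreated WT cells. Cd68 was also higher there (15.6 against 8.70 and 10.5 CPM). Lyz2 (3.55 against 20.1 and 14.5 CPM) and Csf1r (1.24 against 1.60 and 1.78 CPM) were lower. Summed B1 markers were 1031 and 983 CPM, against 563 to 780 CPM. Bhlhe40 and Plscr1 made up most of that sum, with means of 519 and 292 CPM in the additional libraries. Spn was higher there (57.4 against 18.0 CPM in untreated DKO and 37.1 CPM in untreated WT cells). Zbtb32 was lower (22.3 against 34.0 and 55.5 CPM). The part of the build and of these markers in the values of the members was not tested.

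The genes whose log2 CPM followed a member most closely over the 10 libraries of 4 groups were ranked among 9347 genes with a mean of at least 5 CPM, outside immunoglobulin loci. These libraries share genotype, stimulation and table, so the correlations describe the groups as much as the genes. For Ighm they were Trp53i11 (Pearson r = 0.975), Oas1c (0.974), Nrgn (0.973), Pycard (0.972) and Kcnn4 (0.968). For Ighd they were Yy1 (0.949), Ccni (0.920), Golph3 (0.919), Dcaf5 (0.915) and Phf12 (0.911), and for Igkc Nop53 (0.965), Pqbp1 (0.936), Zscan21 (0.917), Polr3c (0.901) and Actb (0.892).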

How the data were processed

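Poly(A) RNA of 12 libraries was counted per gene by the authors, and the deposited raw counts were used. Per the submitters' processing notes, reads were handled with FastQC 0.10.1, cutadapt 1.9.1, HISAT2 2.2.1 and HTSeq 0.6.1, with GRCm39 as the build. Neither the strand setting nor the annotation release is given in the sources used here. The 12 deposited FPKM columns were not used. Depth was 15090953 to 21731893 counts per library. The members and gene lists were chosen with earlier results of these data known.

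Tests on counts used edgeR 4.0.16 under R 4.3.3 (TMM scaling, quasi-likelihood fit, low counts removed by filterByExpr at a minimum of 10 and a total of 15, two-sided tests, Benjamini-Hochberg adjustment over all tested genes, threshold 0.05). DKO and WT were compared in separate fits for untreated and stimulated cells, and stimulation and its interaction with genotype in a joint fit of 10 libraries with genes joined by identifier (55349 common genes). The SE was worked out from the log2 change and its F statistic. CPM in the text are counts per 1000000 of the plain library total. Ratios and shares within libraries were compared by exact permutation tests. The rule was to name all members and targeted genes, up to 4 called genes per list by p, and the 5 genes most like Ighm, Ighd and Igkc. On stimulation within a genotype, and for the marker lists, it was followed only in part. Fewer called genes are named there, and not always those with the smallest p. Genes named beyond the rule are Jchain, Zfp318 where it did not pass, Ung and Hnrnpll in DKO cells, Supt5 and Shld3 on stimulation of WT cells, Fcrla, Iglc1 to Iglc3, Xbp1, Prdm1, Sdc1, Irf4, Txndc5, Derl3, Mzb1 in stimulated cells and Cd22, chosen after their values were seen. The same holds for Adgre1, Cd68, Lyz2, Csf1r, Bhlhe40, Plscr1 and Zbtb32. A gene that the rule names is not reported here.

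One stimulated WT column carries the number 3, which no label of that group has, and it was used without a number. Alternatives were RLE scaling, plain totals, immunoglobulin genes left out of the scaling, DESeq2 1.42.0, no filter, leaving out each library, a single fit, a replicate block, and a WT group that holds the additional libraries too. Chosen after seeing the data were a term for sex and the 4 libraries that read as male. The tests were checked on simulated counts. Sequences are from GRCm38 and GENCODE M21, and none was held for the proteins.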

Additional observations from a re-analysis of the deposited data

Results flagged for a closer look

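The log2 ratio of Ighd to Ighm counts responded to stimulation in opposite directions in the genotypes. The stimulated minus untreated difference was -0.67 in DKO cells and 0.40 in WT cells, so the DKO difference minus the WT difference was -1.07. Permuting the untreated and stimulated labels within each genotype (100 arrangements, exact permutation test) gave p = 0.01, the smallest possible, and 0.03 adjusted over the 3 within-library measures. That test starts from no effect of stimulation in either genotype. The gene-wise edgeR interaction of neither gene passed, with adjusted p-values of 0.300 for Ighm and 0.282 for Ighd. Untreated and stimulated libraries come from different tables, and the part of that in the result was not tested.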

How the results depend on the processing

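Counts of members called and, after each, of all genes called moved as follows. In untreated cells (4 and 2638) they were 2 members with plain library totals, 2 members in a single fit over 10 libraries, 0 members and 319 genes when the additional libraries joined the WT group, and 4392 genes with a term for sex (added after the data were seen). Leaving out 1 library gave 1 to 4 members and 923 to 2779 genes. In stimulated cells (1 and 1625) they were 2 and 2847 without a filter on low counts, 3431 genes in a single fit, and 0 to 4 members and 576 to 5977 genes on leaving out 1 library. For the interaction (0 and 21) they were 1 and 174 with DESeq2, 3 and 491 without a filter, and 0 to 1 members and 1 to 1244 genes on leaving out 1 library. For stimulation of WT cells (5 and 6097) they were 3 and 2438 with the additional libraries, and 2 to 5 and 3556 to 7031 on leaving out 1 library. For stimulation of DKO cells (5 and 4952) they were 7 and 5194 without a filter, and 4 to 7 and 3965 to 5074 on leaving out 1 library. Plain totals gave 28.6% higher calls in untreated and 30.6% in stimulated cells, against 45.3% and 45.2% with TMM. The cause of these moves was not tested.

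Some members that did not pass changed sign. With plain totals Igkc stood at -0.0201 in untreated cells. Ighg2b on stimulation of WT cells stood at 0.00899 with RLE scaling and 0.00995 with DESeq2, and Igkc there at 0.44 with the additional libraries. On leaving out 1 library the ranges were -0.40 to 0.0429 (Ighg1), -0.46 to 0.11 (Ighg2b) and -0.0162 to 0.10 (Igkc) in untreated cells, and -1.15 to 0.27 (Ighg2c) and -0.10 to 0.51 (Igkc) in stimulated cells. For the interaction they were -0.30 to 1.12 (Ighg2c), -0.0129 to 1.76 (Ighe) and -0.15 to 0.49 (Igkc). For stimulation they were -0.46 to 0.31 (Ighg2b) and -0.11 to 3.81 (Igha, which passed) in WT cells, and -0.21 to 0.42 (Igkc) in DKO cells. The downstream share difference in untreated cells was -0.978 percentage points with the additional libraries and -0.00408 to 0.472 on leaving out 1 library. In stimulated cells it was 3.68 per kilobase, and the kappa share difference in untreated cells was 12.7 with the additional libraries.

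With the replicate number as a block, 1 member and 786 genes passed in untreated cells, where Ighm was called and Ighd (adjusted p = 0.0729), Ighg3 (0.127) and Igha (0.106) were not. Correlations of same-numbered untreated libraries were -0.574, -0.587 and 0.410, and not every library correlated best with its own number. For the interaction the block left 0 members and 1 gene, with Ighg2c at -0.39. For stimulation of WT cells it left 3 members and 2862 genes, with Ighg2b at 0.16, and for DKO cells 5 members and 3718 genes. Stimulated DKO and WT columns share too few numbers for a block. At |log2| of 1, simulated untreated and stimulated comparisons recovered 69% and 47% of changed genes.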
